A study of Emiliania huxleyi CCMP1516 with 36 samples.

Results

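A set of 200 genes of the marine alga Emiliania huxleyi was high in the parent cultures that served as inoculum, lower in vehicle cultures 24 h after treatment, and within 2-fold of the vehicle in cultures with the bacterial signal 2-heptyl-4-quinolone (HHQ) at 10 or 100 ng/ml. They were taken from 37212 features of the count table, of which 36434 carried a locus identifier beginning EMIHUDRAFT_ in place of a gene symbol. Members were selected on measured values. Counts were scaled to CPM, the counts of a gene in each 1000000 counts of its library, and 0.5 CPM was added to each group mean. An identifier stayed in if the absolute log2 ratio of HHQ 10 and of HHQ 100 to vehicle was under 1 at both 24 and 72 h, which left 21301. The 200 with the highest log2 ratio of parent culture to vehicle at 24 h were then taken. All 200 were found in the RefSeq gene table as protein-coding loci, and none carried a symbol, so no role can be given for any of them.

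Each of the 9 groups held 4 biological replicate cultures of strain CCMP2090, all axenic, grown in f/2-Si seawater medium on a light and dark cycle. The treatments were the vehicle (0.002% DMSO) and HHQ at 1, 10 and 100 ng/ml in it, each sampled 24 h and 72 h after treatment, and the parent cultures were sampled at time 0 with no treatment. Totals ran from 5679128 estimated counts in the library of HHQ 1 replicate 3 at 72 h to 42602884 in that of HHQ 10 replicate 3 at 24 h. The time between inoculation and treatment is not given in the sources used here. Parent and vehicle cultures differ in time, in the inoculation between them and in the DMSO, and these cannot be told apart. Levels are relative to each library's total, so less RNA of a gene per cell and fewer cells that use it cannot be told apart either.

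Emiliania huxleyi is a bloom-forming coccolithophore, a unicellular alga known for calcite scales, although some cultured strains make none. In batch culture such algae pass from fast division into a stationary phase as nutrients or light run short, and dilution into fresh medium starts division again. Transcripts of nutrient uptake, storage and stress are known to differ between these phases. HHQ is an alkylquinolone made by some bacteria as a signal in cell-to-cell communication, and it is known to hold back the division of this alga.

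The parent, vehicle, HHQ 10 and HHQ 100 libraries chose the genes, so their values are given as a description and were not tested. The highest ratio of parent to vehicle belonged to EMIHUDRAFT_436971, at 6.78 on the log2 scale. Rank 198 was EMIHUDRAFT_124348 at 1.34, the next EMIHUDRAFT_446945 at 1.33 and rank 200 EMIHUDRAFT_423339 at 1.33. The first genes left out were EMIHUDRAFT_244165 at 1.33, EMIHUDRAFT_248878 at 1.33 and EMIHUDRAFT_238451 at 1.32. Values on either side of the last rank were thus nearly the same, and the set has no natural edge there.

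Genes that met the parent ratio were more often outside the HHQ limits than inside them. Over all features, 1354 genes had a ratio at or above that of the last of the 200, 1299 of them with an EMIHUDRAFT_ identifier. The HHQ limits left out 1099 of these. Of the 1099, 1012 were at least 2-fold higher than vehicle in at least 1 of the 4 HHQ comparisons and at least 2-fold lower in none, 68 showed the opposite, and 19 had ratios of both kinds. The comparison that put most of them outside was HHQ 100 at 72 h, with 934 genes at or above a log2 ratio of 1. By the same scaling the median over all genes with a count was itself 0.65 there, and 0.46 for HHQ 100 at 24 h. Of all 36434 identifiers 21301 were inside the limits, and the share of them at or above a ratio of 1 was not counted. The counts for the 1099 were not repeated with other scalings. HHQ ratios at 24 h also share their vehicle libraries with the parent ratio. The 200 genes are therefore the smaller share of those that were high in the parent cultures.

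**Figure D1:**
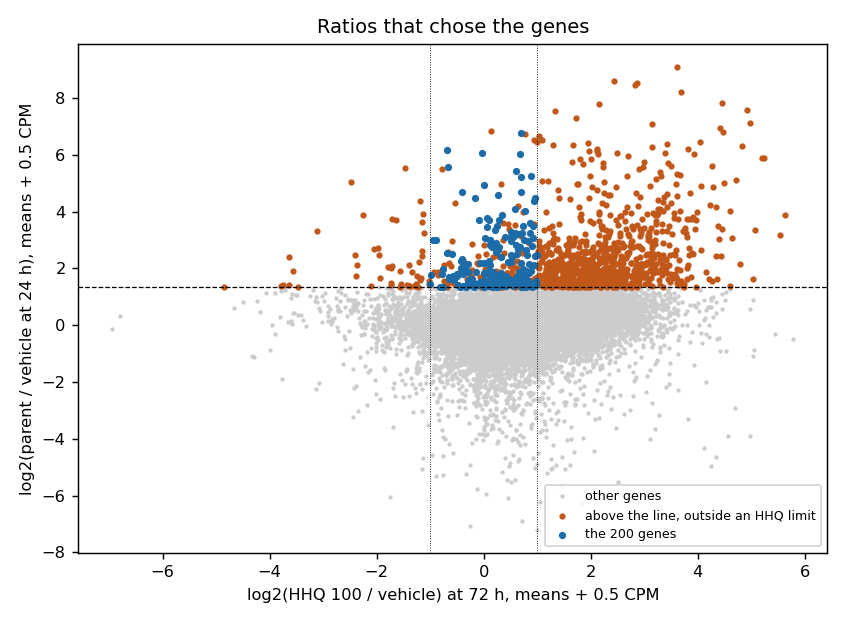
Each point is a gene: the horizontal axis is the log2 ratio of HHQ 100 to vehicle at 72 h and the vertical axis the log2 ratio of parent to vehicle at 24 h, both of group means + 0.5 CPM. Blue points are the 200 genes, all above the dashed line at 1.33 and between the dotted lines at -1 and 1. Orange points lie above the same line but outside an HHQ limit, and most of them lie right of the dotted line at 1 (934 of 1099 EMIHUDRAFT_ genes).

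Whether the genes stayed within 2-fold with HHQ depended on the scaling. By library total, the median log2 ratio to vehicle over the 200 genes was 0.01 for HHQ 10 and 0.17 for HHQ 100 at 24 h, and 0.00 for HHQ 10 and 0.33 for HHQ 100 at 72 h. Over all genes with a count the same medians were 0.11, 0.46, 0.05 and 0.65. With TMM factors (trimmed mean of M values), which centre the bulk of the genes, 150 of the 200 stayed inside all 4 limits, and with DESeq2 size factors 148. Every gene that crossed a limit did so downwards: with TMM, 5 for HHQ 10 and 24 for HHQ 100 at 24 h, and 2 for HHQ 10 and 37 for HHQ 100 at 72 h. Being within 2-fold of vehicle is thus a statement on shares of the library, and for the genes that crossed a limit it was not met relative to the bulk of the other genes.

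One library stood apart in these genes. HHQ 100 replicate 3 at 24 h was the highest of its 4 libraries in 118 of the 192 genes with a count in that group. The next largest such count was 81 of 178, in vehicle replicate 4 at 72 h, and the share over all genes was not counted. HHQ 100 replicate 3 was also the highest in all 10 genes with the highest parent ratio. In those 10 its level was a median 5.56% of the parent mean, between 3.55% and 8.39%, and in replicates 1, 2 and 4 the median was 0.19%, 0% and 0.27%. Without that library 196 of the 200 genes were inside the HHQ limits, the rule took 188 of the 200, and 13 of the 1099 genes left out came inside the limits. The cause was not tested. It is in none of the HHQ 1 and vehicle groups that are tested here, but the tests share the filter and the estimate of spread over all 36 libraries with it.

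**Figure D2:**
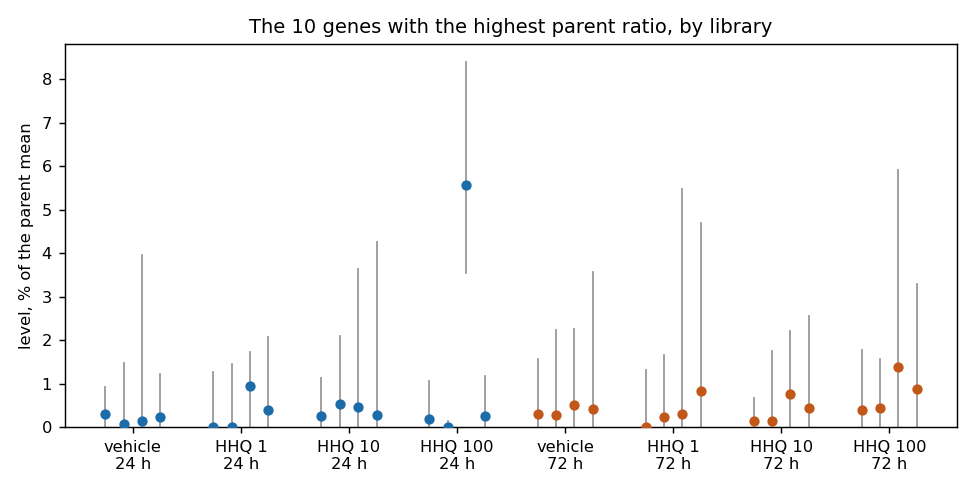
Level of the 10 genes with the highest parent ratio in each of the 32 libraries after inoculation, as a percentage of their parent mean. Points are medians over the 10 genes and lines run from the lowest to the highest gene, with 4 libraries a group in replicate order. The third library of HHQ 100 at 24 h has a median of 5.56%, and the next highest median is 1.40%, in the third library of HHQ 100 at 72 h.

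Taken as a sum, the 200 genes made up 0.657% of the counts in the parent cultures and between 0.139% and 0.221% in the other groups. Their summed level was 6565 ± 267 CPM in the parent cultures (mean ± SD, n = 4 in each group). At 24 h it was 1601 ± 128 CPM with vehicle, 1501 ± 61.1 with HHQ 1, 1391 ± 192 with HHQ 10 and 1849 ± 278 with HHQ 100. By 72 h it was 2209 ± 140 CPM with vehicle, 2160 ± 190 with HHQ 1, 1860 ± 171 with HHQ 10 and 2026 ± 128 with HHQ 100. The sum at 72 h lay between the level at 24 h and that of the parent cultures in all 4 treatments. With vehicle and with HHQ 1 all 4 libraries at 72 h lay above all 4 at 24 h, whereas libraries of the 2 times overlapped with HHQ 10 and HHQ 100. Without HHQ 100 replicate 3 at 24 h, which stood apart, all 4 HHQ 100 libraries at 72 h lay above the 3 left at 24 h, whose mean was 1715 ± 87.2 CPM (n = 3). The difference between HHQ 100 and vehicle at 24 h was 0.21 on the log2 scale of summed CPM, 0.10 without HHQ 100 replicate 3, -0.66 with TMM factors and -0.74 with DESeq2 size factors.

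**Figure D3:**
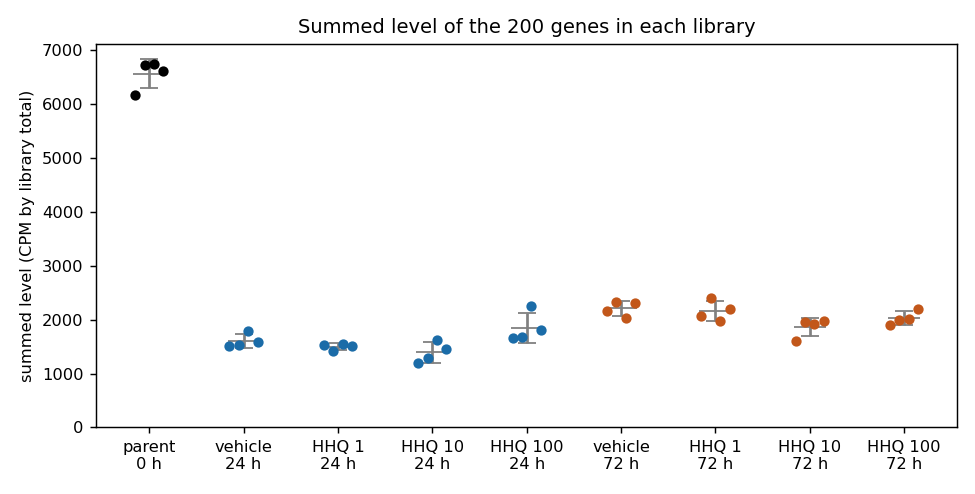
Summed level of the 200 genes in each of the 36 libraries, in CPM by library total. Points are libraries, and horizontal lines with bars are the mean and SD of 4 libraries. The parent libraries lie between 6174 and 6750 CPM, and no other library exceeds 2409 CPM.

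A few genes made up much of that sum. The 10 genes most counted in the parent cultures held 2979 ± 93.2 CPM of it in the parent cultures, against 3586 ± 180 CPM for the other 190 together. In HHQ 1 cultures these 10 summed to 1322 ± 173 CPM at 72 h, against 843 ± 48.3 CPM at 24 h, and the other 190 to 838 ± 57.9 CPM at 72 h, against 658 ± 25.99 CPM at 24 h. The median gene had 4.77 CPM in the parent cultures, and 190 of the 200 reached a mean of 1 CPM there. In the other groups between 72 and 81 genes did. With vehicle at 24 h, 109 genes had a mean under 0.5 CPM and 21 had no count at all.

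**Figure D4:**
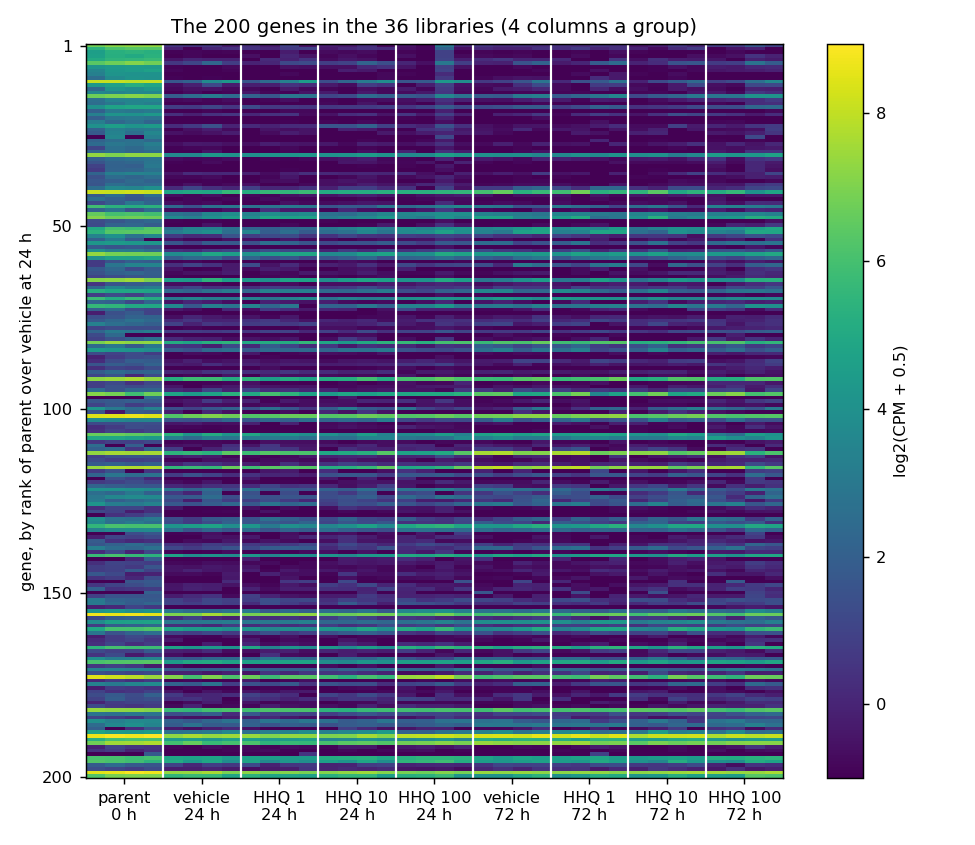
Level of the 200 genes (rows, by rank of the parent ratio) in the 36 libraries (columns, 4 a group), as log2(CPM + 0.5). The parent libraries at the left are brighter than the rest in nearly all rows, and a faint bright column in the upper rows of HHQ 100 at 24 h is replicate 3.

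HHQ 1 libraries took no part in the choice, and they show where the genes stood in cultures that the rule did not see, although the parent libraries they are set against did. All 200 genes had a lower mean in HHQ 1 cultures than in the parent cultures at 24 h and at 72 h. At 24 h, 195 genes were at or under a log2 ratio of -1 to the parent cultures, and the median was -1.87, against -0.26 over all genes with a count. In 177 of the 200 the 4 HHQ 1 libraries at 24 h lay below all 4 parent libraries, against 16.9% of all genes with a count. At 72 h, 181 genes were at or under -1, and the median was -1.88, against -0.20 over all genes with a count. At that time 169 genes did not overlap with the parent libraries, against a background of 18%. These parent libraries chose the genes, so the gaps to the values over all genes follow in part from the choice and are no test. Of the 109 genes under 0.5 CPM with vehicle at 24 h, 104 were also under it with HHQ 1 at 24 h and 103 with HHQ 1 at 72 h.

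In no group after inoculation did the mean of any of the 200 genes reach the parent mean. At 24 h the rule fixed this in advance for vehicle, HHQ 10 and HHQ 100. The genes nearest to the parent mean were in HHQ 100 at 72 h, where 45 genes stood above a log2 ratio of -1 to the parent cultures and the highest was at -0.02. By the same scaling the median ratio to the parent cultures over all genes with a count was itself 0.32 there. Parent libraries lay above all 4 HHQ 10 libraries at 24 h in 173 of the 200 genes, against 10.1% of all genes with a count. They lay above those of HHQ 100 at 24 h in 165, against 9.42%, and above those with vehicle at 72 h in 169, against 18.9%. The rule used these libraries to choose the genes, so the gap to the shares over all genes follows in part from the choice and is no test. With vehicle at 72 h 18 genes stood above -1, with HHQ 1 19 and with HHQ 10 18. The medians over all genes with a count were -0.20, -0.20 and -0.12 in these groups. The shares of all genes above -1 were not counted, so the 45 with HHQ 100 cannot be read as particular to the 200.

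EMIHUDRAFT_436971 was at rank 1 by the ratio with 0.5 CPM added, which holds down the ratios of genes at or near 0 CPM with vehicle. It had 0.95, 0.87, 1.00 and 0.36 CPM with vehicle at 24 h, against 108, 143, 157 and 161 CPM in the parent cultures. In HHQ 1 cultures it had 0.79, 0.69, 0.88 and 0.75 CPM at 72 h, against 0.78, 0.33, 1.37 and 0.22 CPM at 24 h. With HHQ 100 at 24 h the libraries read 0.21, 0.07, 7.46 and 0.57 CPM. All parent libraries are high and all others low, with the third library of HHQ 100 the highest of the low ones.

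EMIHUDRAFT_439979, at rank 2, had 0.44, 0, 0.51 and 0.83 CPM with vehicle at 24 h, against 41.5, 68.4, 82.3 and 76.3 CPM in the parent cultures. In HHQ 1 cultures its level was 0.72, 1.12, 0.53 and 0.78 CPM at 72 h, against 0.86, 0.54, 1.17 and 1.39 CPM at 24 h. Vehicle and HHQ 1 libraries overlap, and the parent libraries lie above all of them. EMIHUDRAFT_455953 had a single library with a count among those with vehicle at 24 h, at 0.06 CPM, against 24.3, 36.8, 31.9 and 40.6 CPM in the parent cultures. EMIHUDRAFT_438654 had 0.25, 0.52, 0.44 and 0.44 CPM with vehicle at 24 h, against 32.1, 43.6, 45.4 and 51.8 CPM in the parent cultures. All 3 were low but counted in at least 1 vehicle library, and EMIHUDRAFT_455953 was the one near the limit of counting.

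EMIHUDRAFT_356198 was at 0.04, 0, 0 and 0.09 CPM with vehicle at 24 h, against 16.9, 19.6, 21.3 and 20.6 CPM in the parent cultures. It had no count in the 4 HHQ 1 libraries at 72 h, which allows a level of up to 0.051 CPM over the group. EMIHUDRAFT_440029 had no count in the 4 HHQ 1 libraries at 24 h, which allows up to 0.042 CPM, and 10.9, 18.7, 21.5 and 25.4 CPM in the parent cultures. EMIHUDRAFT_440331 likewise had no count with HHQ 1 at 24 h and had 5.55, 13.5, 16.5 and 15.8 CPM in the parent cultures. A count of 0 is read here as allowing 3 counts over the 4 libraries of a group, and this covers counting error only.

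EMIHUDRAFT_458613 and EMIHUDRAFT_436974 stayed measurable after inoculation and varied between replicates. EMIHUDRAFT_458613 had 1.01, 1.61, 4.30 and 1.25 CPM with vehicle at 24 h, against 84.2, 107, 134 and 108 CPM in the parent cultures. EMIHUDRAFT_436974 had 2.71, 3.82, 13.1 and 18.5 CPM with vehicle at 24 h, against 263, 268, 239 and 259 CPM in the parent cultures. The parent libraries of EMIHUDRAFT_436974 lie close together, whereas those with vehicle differ several-fold. In HHQ 1 cultures it had 0.60, 2.23, 2.99 and 6.11 CPM at 72 h, against 2.65, 4.90, 9.57 and 21.7 CPM at 24 h. Replicate 1 was its lowest library in all 8 groups after inoculation, and replicate 4 the highest in 7 of them. No label ties a replicate number to a shared batch.

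Adjacent genes occurred among the 200. By their order in the RefSeq gene table, 12 of the 200 fell into 5 runs of neighbours with no gene listed between them. Neighbours were read from the order and rising start positions, and the piece of the assembly each gene lies on was not compared. How many runs 200 other loci would give was not counted. The run with the highest ratios is EMIHUDRAFT_227845, EMIHUDRAFT_227846 and EMIHUDRAFT_227847, at ranks 3, 9 and 21. EMIHUDRAFT_227845 had 0.04, 0.06, 0.03 and 0.05 CPM with vehicle at 24 h, against 23.4, 38.2, 42.8 and 38.0 CPM in the parent cultures. EMIHUDRAFT_227846 had no count with vehicle at 24 h, against 9.48, 16.9, 16.1 and 16.4 CPM in the parent cultures, so its level with vehicle was at least 497-fold lower, taking 3 counts in the 4 libraries together as the limit. For EMIHUDRAFT_227847, also without a count with vehicle, the parent libraries held 3.56, 6.80, 7.30 and 6.32 CPM, and the level with vehicle was at least 202-fold lower.

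The genes on either side of this run did not share the pattern. EMIHUDRAFT_71170, next to it on one side, averaged 10.1 CPM with vehicle at 24 h and 13.2 CPM in the parent cultures. EMIHUDRAFT_417860, next to it on the other side, averaged 202 CPM with vehicle at 24 h and 187 CPM in the parent cultures. One step further out, EMIHUDRAFT_441031 and EMIHUDRAFT_441036 had log2 ratios of parent to vehicle of -0.08 and 0.18. Whether the run is 1 transcript split over several gene models was not tested.

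**Figure D5:**
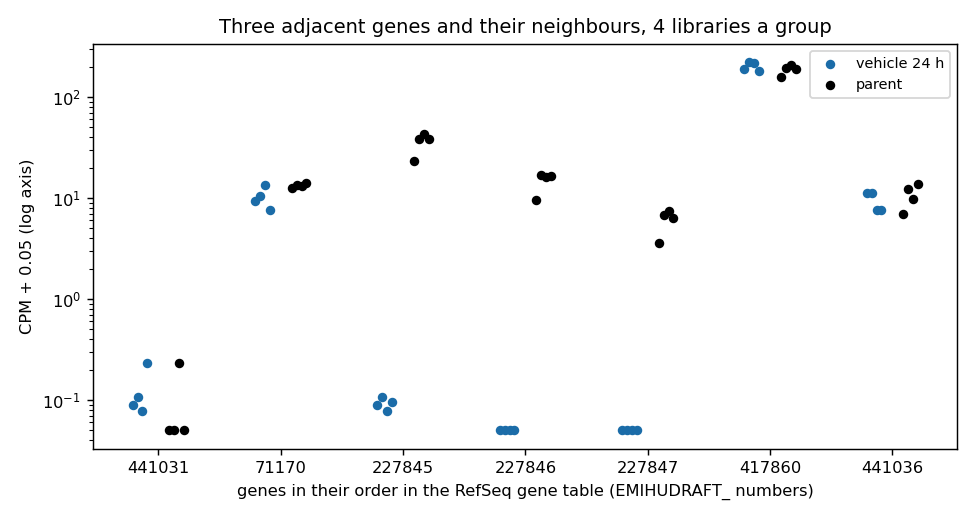
Level of EMIHUDRAFT_227845, EMIHUDRAFT_227846 and EMIHUDRAFT_227847 and of the 2 genes on each side, in the order of the RefSeq gene table, as CPM + 0.05 on a log axis. Points are libraries, 4 with vehicle at 24 h on the left of each pair and 4 parent cultures on the right. The 3 middle genes are at or near 0 CPM with vehicle and between 3.56 and 42.8 CPM in the parent cultures, and the groups lie close together in EMIHUDRAFT_71170, EMIHUDRAFT_417860 and EMIHUDRAFT_441036.

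The other runs were smaller or less even. EMIHUDRAFT_211953 and EMIHUDRAFT_211954 formed a pair; EMIHUDRAFT_211954 had 0.76, 0.42, 0.82 and 1.00 CPM with vehicle at 24 h, against 9.59, 17.2, 16.4 and 20.4 CPM in the parent cultures. EMIHUDRAFT_425237, EMIHUDRAFT_425238 and EMIHUDRAFT_459686 formed a run. In the parent cultures EMIHUDRAFT_425237 had 3.55 ± 3.18 CPM (mean ± SD), and EMIHUDRAFT_459686 a more even 1.36 ± 0.31 CPM. The parent libraries of EMIHUDRAFT_425238 disagreed, with 1.83 and 4.79 CPM in replicates 1 and 2 and no count in replicates 3 and 4. The remaining pairs, EMIHUDRAFT_424205 with EMIHUDRAFT_424206 and EMIHUDRAFT_58747 with EMIHUDRAFT_443621, each hold a gene whose parent counts came from replicate 4 alone.

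Replicate support for the parent level was uneven. The coefficient of variation over the 4 parent libraries had a median of 29.3%, was under 20% in 50 genes and over 50% in 37. Parent replicate 1 was the lowest of the 4 in 111 of the 200 genes, and the share over all genes was not counted. For EMIHUDRAFT_254148, EMIHUDRAFT_58747 and EMIHUDRAFT_424205 all parent counts lay in replicate 4, at 3.07, 3.60 and 5.18 CPM in that library, and for EMIHUDRAFT_240404 85.5% of the parent CPM did. These genes, singled out after their values were seen, are members through 1 library.

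The most counted genes in the parent cultures stayed well above the limit of counting. EMIHUDRAFT_446945 had 158, 164, 190 and 121 CPM with vehicle at 24 h, against 359, 379, 457 and 405 CPM in the parent cultures. EMIHUDRAFT_202725 had 75.7, 108, 130 and 105 CPM with vehicle at 24 h, against 340, 362, 402 and 349 CPM in the parent cultures. EMIHUDRAFT_124658 had 27.7, 31.02, 30.0 and 48.1 CPM with vehicle at 24 h, against 281, 273, 293 and 273 CPM in the parent cultures. In all 3 the vehicle libraries lie below the parent libraries without overlap, as in 181 of the 200 genes and 10.8% of all genes with a count, a contrast the rule used. EMIHUDRAFT_439646 was less even, with 134, 63.3, 130 and 70.8 CPM with vehicle at 24 h, against 347, 292, 239 and 173 CPM in the parent cultures.

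EMIHUDRAFT_440481 and EMIHUDRAFT_436719 moved together from library to library. EMIHUDRAFT_440481 had 47.7, 54.5, 50.1 and 98.6 CPM with vehicle at 24 h, against 168, 216, 214 and 226 CPM in the parent cultures. EMIHUDRAFT_436719 had 42.1, 49.2, 41.2 and 86.2 CPM with vehicle at 24 h, against 160, 191, 185 and 194 CPM in the parent cultures. Replicate 4 is the highest vehicle library in both. Across the 36 libraries the quotient of their CPM stayed between 0.735 and 0.948, a feature picked out after the values were seen. Whether they are copies that share reads, which the counting step would divide between them, was not tested.

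The comparison that is independent of the choice is HHQ 1 at 72 h against HHQ 1 at 24 h, 8 libraries that the rule did not use. It asks whether the genes went on changing between these times. Of the 200 genes 186 passed the filter on low counts over all 36 libraries, and 14 did not. On the 8 libraries alone 89 of the 200 passed, so 97 of the 186 were carried into the test by other libraries, the parent libraries that chose them among these, and had little chance of a call. By edgeR's quasi-likelihood test with Benjamini-Hochberg adjustment over 26494 genes, 11 of the 186 rose and 1 fell at an adjusted p under 0.05. That is 6.45%, against 5.2% of all genes tested, with 2.85% of all genes higher and 2.36% lower. The median log2 fold change over the 186 was -0.05, against 0.07 over all genes tested. The share of calls over the 186 therefore says little about the genes. All 12 calls were among the 89, and in a fit of the 8 libraries alone 4 of the 89 rose and 0 fell, against 1.75% of the 20384 genes tested in that fit. For the 12 of 89, the share of calls among all genes that passed that filter was not counted. With a replicate block on the 8 libraries 0 rose and 0 fell, although same-numbered libraries did not deviate together in this comparison.

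Of the 1099 genes that met the parent ratio but were outside an HHQ limit 1098 were tested, 80 rose and 46 fell, which is 11.5%; the difference between this share and that of the 186 was not tested. At an unadjusted p under 0.05 there were 34 of the 186 genes, or 18.3%, against 17.7% of all genes. DESeq2 called 14 of the 186, with 77 given no adjusted p. The HHQ 1 libraries at 72 h lay above all those at 24 h in 14 of the 200 genes, against 3.18% of all genes with a count, and below them in 3, against 3.15%.

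EMIHUDRAFT_115032 showed the largest rise among the genes that were called and did not overlap. It had 12.8, 14.9, 12.1 and 21.4 CPM in HHQ 1 cultures at 72 h, against 4.36, 3.72, 4.45 and 4.95 CPM at 24 h. All 4 libraries at 72 h lie above all 4 at 24 h, and the log2 fold change was 1.75 ± 0.26 (SE; edgeR adjusted p = 6.43e-05). Its parent libraries held 31.8, 62.4, 54.9 and 77.4 CPM, above both times.

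EMIHUDRAFT_448361 had 1.39, 0.96, 2.64 and 2.94 CPM at 72 h, against 0.86, 0.56, 0.56 and 0.36 CPM at 24 h in the HHQ 1 cultures. The log2 fold change was 1.65 ± 0.32 (edgeR adjusted p = 0.00146), and in a fit of the 8 libraries alone the adjusted p was 0.0672. This is a gene of few counts, and the groups are separated by a narrow gap.

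EMIHUDRAFT_441379 had 157, 177, 111 and 122 CPM in HHQ 1 cultures at 72 h, against 69.9, 43.8, 51.0 and 48.3 CPM at 24 h. It rose by a log2 fold change of 1.46 ± 0.27 (edgeR adjusted p = 0.00071). In the parent cultures it had 110, 182, 185 and 215 CPM, so the HHQ 1 libraries at 72 h overlap with the parent libraries, whereas those at 24 h do not.

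EMIHUDRAFT_349815 was the most counted of the 200 in the parent cultures. In HHQ 1 cultures it had 301, 392, 279 and 361 CPM at 72 h, against 174, 130, 165 and 158 CPM at 24 h, a rise of 1.08 ± 0.25 on the log2 scale (edgeR adjusted p = 0.00732, and 0.0596 in a fit of the 8 libraries alone). Its parent libraries held 401, 473, 438 and 488 CPM. The vehicle cultures, which the rule did use, had 324, 343, 307 and 385 CPM at 72 h, against 155, 202, 166 and 180 CPM at 24 h. Both treatments show the same order of the times without overlap.

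EMIHUDRAFT_436368 had 6.67, 7.18, 7.04 and 7.84 CPM in HHQ 1 cultures at 72 h, against 3.81, 2.51, 3.52 and 3.13 CPM at 24 h, and rose by 1.13 ± 0.23 on the log2 scale (edgeR adjusted p = 0.00219). EMIHUDRAFT_436790 had 53.1, 60.2, 67.1 and 97.6 CPM at 72 h, against 44.0, 23.3, 34.5 and 26.1 CPM at 24 h, and rose by 1.10 ± 0.20 (edgeR adjusted p = 0.000692). In both the libraries of the 2 times do not overlap. The remaining 5 called rises, EMIHUDRAFT_360643, EMIHUDRAFT_359412, EMIHUDRAFT_116969, EMIHUDRAFT_442401 and EMIHUDRAFT_357429, are named here after their values were seen; their libraries overlapped between the times and they had log2 fold changes between 0.97 and 2.63.

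EMIHUDRAFT_363565 was the single called fall. It had 51.2, 81.2, 87.3 and 103 CPM in HHQ 1 cultures at 72 h, against 117, 127, 137 and 155 CPM at 24 h, and the libraries do not overlap. Its log2 fold change was -0.83 ± 0.25 (edgeR adjusted p = 0.0471), and the call was lost in a fit of the 8 libraries alone (adjusted p = 0.179). It was also lost without replicate 2, 3 or 4 at 24 h or replicate 1, 3 or 4 at 72 h, with an adjusted p of 0.127, 0.0871, 0.195, 0.179, 0.115 and 0.0729 in that order. In the parent cultures this gene had 428, 393, 417 and 378 CPM, so its level at 72 h was the farther from the parent level.

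EMIHUDRAFT_440481 and EMIHUDRAFT_436719 also had higher libraries at 72 h without overlap, but did not pass the test. EMIHUDRAFT_440481 had 227, 247, 111 and 148 CPM in HHQ 1 cultures at 72 h, against 58.7, 84.1, 79.1 and 77.0 CPM at 24 h (log2 fold change 1.27 ± 0.56, edgeR adjusted p = 0.211). EMIHUDRAFT_436719 had 198.7, 218, 99.5 and 126 CPM at 72 h, against 55.1, 79.7, 69.0 and 68.8 CPM at 24 h (log2 fold change 1.22 ± 0.57, edgeR adjusted p = 0.254). EMIHUDRAFT_446945 had 146, 156, 157 and 136 CPM at 72 h, against 147, 121, 135 and 118 CPM at 24 h, and its log2 fold change of 0.17 had a 95% interval of -0.23 to 0.56. Of the 10 genes with the highest parent ratio 3 passed the low-count filter on the 8 libraries, and too few counts remained in the others to read anything from the test.

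Gene by gene, ratios of 72 h to 24 h used group means + 0.5 CPM, which draws those of low levels towards 0. Ratios above and below 0 numbered 99 and 86 with vehicle, and 92 and 95 with HHQ 1. With HHQ 10 they numbered 95 and 97, and with HHQ 100 137 and 59. The median log2 ratio of 72 h to 24 h over the 200 genes was 0.00 with vehicle, 0.00 with HHQ 1, 0.00 with HHQ 10 and 0.20 with HHQ 100. Over all genes with a count the same medians were -0.14, 0.02, -0.24 and -0.03. The number of genes at least 2-fold higher at 72 h was 8 with vehicle, 12 with HHQ 1, 10 with HHQ 10 and 9 with HHQ 100, and between 1 and 3 genes were at least 2-fold lower in each. The shares of all genes past these limits were not counted, so the numbers cannot be read as particular to the 200. With vehicle, the 10 most counted genes summed to 1359 ± 98.5 CPM at 72 h, against 913 ± 67.2 CPM at 24 h, and the other 190 to 851 ± 72.6 CPM at 72 h, against 689 ± 73.6 CPM at 24 h. Most of the larger sum at 72 h with vehicle thus lay in those 10.

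HHQ 1 against vehicle asks whether the lowest dose, which the rule did not use, moved the genes. Vehicle libraries are shared with the rule. By edgeR's quasi-likelihood test none of the 186 genes tested was called at 24 h or at 72 h, against 0% of all 26494 genes at both times. On the 8 libraries compared, 92 of the 200 passed the low-count filter at 24 h and 94 at 72 h, so nothing can be read from this about the rest. At an unadjusted p under 0.05 there were 7 of the 186 and 2045 of all genes at 24 h, and 4 of the 186 and 494 of all genes at 72 h. DESeq2 called none of them at either time, and 16 and 8 of all genes at 24 and 72 h.

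The summed level differed little between HHQ 1 and vehicle, and its sign at 24 h depended on the scaling. At 24 h the 4 libraries with HHQ 1 summed to between 1413 and 1555 CPM, against 1512 to 1786 CPM with vehicle, a log2 ratio of -0.09 that became 0.31 with TMM factors and 0.33 with DESeq2 size factors. At 72 h they summed to between 1969 and 2409 CPM with HHQ 1, against 2035 to 2328 CPM with vehicle, a log2 ratio of -0.03. Ranges overlap at both times. The median fitted log2 fold change of the 186 genes, which uses TMM factors, was 0.38 at 24 h, against -0.09 over all genes tested, and -0.06 at 72 h, against -0.03. The genes were chosen for low levels in the vehicle libraries at 24 h, which tends to raise any ratio to those libraries. An effect of HHQ 1 can therefore not be read from the 0.38. Of the 186, 94 also did not pass the low-count filter on the 8 libraries compared at 24 h.

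Gene groups named by symbol could not hold any of the 200, since these carry none, but symbols show which known genes met the same ratios. Of 55 symbol-bearing genes with a parent ratio at or above that of the last of the 200, 4 were inside the HHQ limits: ICL1, ACT-4, PI3K1 and Sar1c, found after their values were seen. ICL1, isocitrate lyase of the glyoxylate cycle, which lets cells build sugars from fat or acetate, was the most counted. It had 490, 750, 416 and 317 CPM with vehicle at 24 h, against 977, 1579, 1740 and 1695 CPM in the parent cultures. In HHQ 1 cultures ICL1 had 734, 817, 1117 and 1154 CPM at 72 h, against 602, 228, 385 and 253 CPM at 24 h, and rose by 1.41 ± 0.20 on the log2 scale (edgeR adjusted p = 2.7e-05). The others averaged 3.48 CPM or less in the parent cultures.

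Among lists of known genes, those of DNA replication had the parent ratio but not the HHQ limits. All 11 replicative polymerase and clamp loader genes with a symbol reached the parent ratio of the last of the 200, and none was inside the limits. In the HHQ 1 comparison of the times none of these 11 passed the test, and their median log2 fold change was -0.19. Of 38 nitrogen genes 5 reached the parent ratio, namely AMT3, DUR3, GLN2, URE1 and URE2, and none was inside the limits; 2 of the 29 tested rose and 2 fell at 72 h. No phosphorus gene of 14, light-harvesting gene of 85, photosystem gene of 3 or ribosomal protein gene of 2 reached the parent ratio. At 72 h with HHQ 1, where 2.36% of all genes tested were called lower and 2.85% higher, 11 of 78 light-harvesting genes fell and none rose, with a median log2 fold change of -0.44, against 0.07 over all genes tested, both photosystem and ribosomal lists had 2 genes that fell, and none of 6 phosphorus genes passed the test. The glycolysis list had 16PFK1 at the parent ratio, with 1 gene of 12 that rose and 1 that fell. PKS1 and PKS2 of 11 polyketide synthase genes reached it, with none of 10 past the test, and so did GPA1, GPA2-1 and GPA2-2 of 8 genes of inorganic carbon and coccoliths, symbols that may stand for other proteins, with none of 7 past the test. The wider calcification list of 12 had 1 of 9 tested genes that fell, and the flagellar genes DYNH1 and IFT27 had too few counts to be tested. These list counts rest on the fit of all 36 libraries; in the fit of the 8 libraries alone 356 of all genes were called, in place of 1378.

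The counting step leaves a trace in the deposited values. In 47 of the 200, or 23.5%, every value in the 36 libraries was whole within 0.001 of a count, against 31.1% of all features with a count. A value that is not whole can mark reads divided between similar transcripts, and how far that moved the levels was not tested.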

How the data were processed

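Per the labels' protocols, mRNA was captured on beads and 36 strand-specific libraries were made. Trimmomatic 0.38 and Salmon 0.12.0 are listed in the submitters' processing notes, with settings and transcript reference not given in the sources used. The authors deposited estimated counts per gene, not normalized, of which 45.7% were not whole within 0.001 of a count; for the tests each was rounded to the nearest whole count. The organism field of the labels names the reference strain CCMP1516, and the strain field CCMP2090; sequence differences between them were not examined. Names and neighbours came from the RefSeq gene table of the CCMP1516 assembly, which held 37202 of the 37212 identifiers; no sequences were used here.

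CPM by library total gave all levels. Tests used edgeR 4.0.16 in R 4.3.3: filterByExpr (26494 genes kept), TMM scaling (factors 0.49 to 2.13), quasi-likelihood F tests two-sided, in 1 model of group means over 36 libraries, with Benjamini-Hochberg adjustment over all genes tested and calls at an adjusted p under 0.05. The SE is the log2 fold change divided by the square root of F, and 95% intervals are 1.96 SE on each side. The script was tested on simulated data. DESeq2 1.42.0, other scalings and filters, a fit of the 8 libraries, a replicate block, and leaving out libraries were alternatives. The members, lists and tests were chosen with earlier results of these data known.

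Genes were named as the 10 most counted in the parent cultures, the 10 with the highest parent ratio, up to 5 called rises and 5 called falls without overlap in HHQ 1 at 72 h against 24 h, and the 3 on each side of the last rank; a part of the rule on protein identity could not be applied. Other genes are named as stated beside them. Groups share replicate numbers, and no label ties a number to a batch. Same-numbered libraries deviated together in HHQ 1 against vehicle at 72 h (correlations 0.284 to 0.445), but not in all pairs of the other 2 comparisons. The main fit had no term for the replicate number in any comparison. A replicate block was an alternative only, and at 72 h it changed no call in HHQ 1 against vehicle.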

Additional observations from a re-analysis of the deposited data

Results flagged for a closer look

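In 174 groups of 4 libraries that were examined, for the summed level and the named genes, 13 held a library whose gap to the nearest other, as a share of the group's range, exceeded Dixon's 95% critical value. Chance flags about 1 in 20 groups. Groups with a mean under 1 CPM were left out of this examination.

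HHQ 100 replicate 3 at 24 h accounts for 4 of the 13. Its group was not examined for EMIHUDRAFT_227845, EMIHUDRAFT_440029 and EMIHUDRAFT_440331. This library held 1.41, 1.51 and 1.08 CPM of them, against at most 0.05, 0 and 0 CPM in the others. EMIHUDRAFT_436971 had 7.46 CPM in that library, against 0.07 to 0.57 in the others of its group. EMIHUDRAFT_439979 had 3.94 CPM there, against 0.07 to 0.17, EMIHUDRAFT_458613 7.29 CPM, against 0.16 to 1.27, and EMIHUDRAFT_436790 93.9 CPM, against 64.7 to 69.5. The cause was not tested.

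Among vehicle cultures at 24 h, EMIHUDRAFT_124658 had 48.1 CPM in replicate 4, against 27.7 to 31.02, and EMIHUDRAFT_440481 had 98.6 CPM in the same library, against 47.7 to 54.5. EMIHUDRAFT_436368 had 5.96 CPM in replicate 2 of that group, against 3.05 to 3.23. EMIHUDRAFT_436719 had 82.0 CPM in HHQ 100 replicate 4 at 24 h, against 25.2 to 32.3. EMIHUDRAFT_436790 had 60.1 CPM in HHQ 10 replicate 3 at 24 h, against 33.98 to 36.3.

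Replicate 1 was flagged in the remaining 4. In the parent cultures EMIHUDRAFT_227846 had 9.48 CPM in it, against 16.1 to 16.9, and EMIHUDRAFT_423339 75.4 CPM, against 118 to 126. EMIHUDRAFT_423339 had 41.7 CPM in HHQ 1 replicate 1 at 24 h, against 25.1 to 27.3. The summed level of the 200 genes was 1606 CPM in HHQ 10 replicate 1 at 72 h, against 1911 to 1967 in the others.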

How the results depend on the processing

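Of the alternative values that bear on a comparison, 153 stayed near the main value and 31 moved. Near means within a set fold of the main count, or for a summed level within the spread. The limit for counts is loose. It took 2025 of all genes called with DESeq2 as near 1378, and 141 genes taken with a pseudocount of 1 as near 200. Many of the 153 were 0 against 0 in HHQ 1 against vehicle. The 11 genes called higher and 1 called lower in HHQ 1 at 72 h against 24 h became 4 and 0 in a fit of the 8 libraries alone, and 0 and 0 with a replicate block. All genes called, 1378, became 356 with the 8 libraries, 31 with the block and 851 with library totals. The correlations of same-numbered libraries in this comparison ran from -0.09 to 0.27, so the numbers were not read as pairing them. In HHQ 1 against vehicle the block changed no call. With library totals 9 of the 186 genes were called, 7 of them shared with the 12 of TMM. Leaving out 1 library gave 10 to 13 genes higher, 0 to 1 lower and 775 to 1849 of all genes called (775 without HHQ 1 replicate 2 at 24 h, 783 without replicate 4 at 24 h, 870 without replicate 1 at 72 h).

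DESeq2 called 16 of all genes in HHQ 1 against vehicle at 24 h and 8 at 72 h, and leaving out 1 library gave 0 to 2 at 24 h and 0 to 1 at 72 h, against 0 with all libraries. No gene of the 200 was called in either under any alternative.

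The rule took 88 of the 200 genes again with TMM factors, 83 with DESeq2 size factors, 98 with a pseudocount of 0.1 and 66 with 5, and 174 to 188 without 1 library. The parent summed level over that with vehicle at 24 h was 2.04 on the log2 scale, 1.79 with TMM, 1.89 with DESeq2 size factors and 2.01 to 2.09 without 1 library. HHQ 1 over vehicle at 24 h was -0.09, 0.31 with TMM, 0.33 with DESeq2 size factors and -0.12 to -0.04 without 1 library. HHQ 100 over vehicle at 24 h was 0.21, -0.66 with TMM, -0.74 with DESeq2 size factors and 0.10 without replicate 3, an alternative chosen after seeing the data. Without 1 library, HHQ 1 at 72 h over 24 h ran from 0.47 to 0.57 and HHQ 1 over vehicle at 72 h from -0.09 to 0.01. Causes of these shifts were not tested. Depth limits what can be said of the 109 genes under 0.5 CPM with vehicle at 24 h, where 1 count in a library is a large part of the level.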
